A study of Mus musculus with 15 samples.

Results

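Spheroids of both SOX9 lines were compared with each other, SOX9-Halo spheroids against SOX9-mEGFP spheroids, over all autosomal genes. The series held 15 poly-A RNA libraries of mouse small-intestinal organoids in 5 conditions, and 3 SOX9-Halo and 3 SOX9-mEGFP spheroid libraries, chosen by their labels, made up this comparison. Of 72844 autosomal genes listed in the count files, 17050 passed the filter on low counts and were tested, among 17560 tested genes of all chromosomes. Both lines came from female wild-type C57BL/6J mice and were grown in Matrigel with IntestiCult medium. Each had been transduced with lentivirus in which the weak L30 promoter drove a tagged SOX9. SOX9-Halo spheroids carried L30prom_Sox9-GDGAGLIN-Halo-V5_IRES_Puro together with L30prom_H2B-GDGAGLIN-mEGFP-V5_IRES_Zeo. SOX9-mEGFP spheroids carried L30prom_Sox9-GDGAGLIN-mEGFP-V5_IRES_Puro together with L30prom_H2B-GDGAGLIN-mScarletI-V5_IRES_Neo, so the tag on SOX9, the histone reporter and the second resistance gene all differed. Each tag was represented by 1 stable line, and the SOX9-Halo spheroids were sampled at a later passage. Line, tag, reporter and passage therefore cannot be told apart in this comparison, and, although the methods name the 3 libraries of a condition as biological replicates, all 3 came from 1 line, so p-values measure the spread within a line. As reference, 3 libraries each were available from SOX9-Halo and SOX9-mEGFP budding organoids, which carried only the SOX9 construct, and from Halo-NLS organoids, which carried the nuclear HaloTag control L30prom_V5-Halo-GDGAGLIN-NLS_IRES_Puro.

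SOX9 is a transcription factor of the SOX family that binds DNA through an HMG box, is made in the intestinal crypt by stem, transit-amplifying and Paneth cells, and is restrained as cells leave the crypt. Budding organoids hold crypt-like buds and villus-like epithelium with absorptive enterocytes and goblet, Paneth, enteroendocrine and tuft cells. Cystic spheroids are thin-walled spheres that resemble cultures of fetal or regenerating intestine, in which markers such as Clu, Anxa1 and Ly6a replace the products of mature villus and crypt cells. Intestinal identity is held by a network of transcription factors, among them CDX2, HNF4A, HNF4G and GATA4, that occupy the enhancers of enterocyte genes.

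Each spheroid library held between 28062722 and 36466380 counts on genes. Levels are given as CPM, the count of a gene per 1000000 counts of its library after scaling of library sizes, SE is the standard error of a log2 fold change, and a log2 fold change is that of SOX9-Halo over SOX9-mEGFP spheroids, so a negative value is a lower level in the SOX9-Halo line. Log2 CPM correlated at r between 0.986 and 0.994 among the SOX9-Halo libraries, between 0.983 and 0.990 among the SOX9-mEGFP libraries and between 0.906 and 0.923 across lines. The 14 markers that define intestinal epithelium summed to 6892 to 7908 CPM in SOX9-Halo and 14905 to 16217 CPM in SOX9-mEGFP spheroids. No read was counted on Cldn3, 1 of the 14, in any of the 6 libraries. Ambiguous reads, 9.65% to 11.2% in these libraries, were not assigned to a gene, and their part in this was not tested. Of the 13 that were tested, 6 were lower in SOX9-Halo (Krt20, Lgals4, Cdx2, Vil1, Epcam and Krt8) and none was higher, beside 9.59% and 3.54% of all genes. Cdh1, which encodes E-cadherin, had 838, 829.5 and 904 CPM in the SOX9-Halo libraries and 839.9, 876 and 1091 CPM in the SOX9-mEGFP libraries, which overlapped. Markers of other cell types were low. The 14 mesenchymal markers summed to 3.14 to 4.05 CPM in SOX9-Halo and 2.55 to 10.9 CPM in SOX9-mEGFP with Dcn, Postn and Lum at 0, and the 14 immune markers to 3.68 to 8.51 and 7.14 to 11.7 CPM with Tyrobp at 0. The 12 endothelial markers, with Cldn5 at 0, summed to 50.6 to 66.7 and 64.2 to 75.5 CPM, the 12 neural and glial markers, with Nefl, Elavl4 and Uchl1 at 0, to 2.95 to 3.39 and 12.3 to 38.2 CPM, and the 7 erythroid markers, with Hbb-bs, Hba-a2 and Hbb-bt at 0, to 0.338 to 0.537 and 0.0597 to 0.17 CPM. Their part in the differences below was not tested.

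Sox9 libraries of both lines overlapped. Sox9 (ENSMUSG00000000567, chr11:112673009-112678586) was counted at 314, 442 and 441 CPM in the SOX9-Halo libraries and 260.0, 504 and 705 CPM in the SOX9-mEGFP libraries, against 15.8 ± 6.91 CPM (SD, n = 3) in Halo-NLS organoids. The log2 fold change was -0.30 with a 95% interval from -1.47 to 0.88 (adjusted p = 0.75, edgeR). Reads of the endogenous gene and of the transduced coding sequence fall on the same gene and cannot be told apart.

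Across the autosomes, 604 genes were upregulated and 1635 downregulated in SOX9-Halo relative to SOX9-mEGFP spheroids (edgeR's quasi-likelihood test, Benjamini-Hochberg adjusted p of 0.01 or less, a log2 fold change of 1 or more in either direction and 10 or more normalised counts on average). These differentially expressed genes (DEGs) were 3.54% and 9.59% of the autosomal genes tested. Without SOX9-mEGFP replicate 2, 391 genes were higher, and with only the 6 spheroid libraries in the fit, 920 were. For 2238 of the 2239 DEGs the 3 libraries of one line all lay above those of the other, which held for 48.9% of all autosomal genes tested. The median log2 fold change of all these genes was -0.05. Both sets differed in size of change as well as in number. The median absolute log2 fold change was 2.04 for genes higher and 3.06 for genes lower in SOX9-Halo, and 69 (11.4%) of the higher against 391 (23.9%) of the lower genes reached 5, with genes at 0 in one line taken at the bound that 3 counts per library allow. Genes lower in SOX9-Halo were often barely detected there, since 394 of them (24.1%) had at most 3 counts in each SOX9-Halo library. The corresponding number for the higher genes in SOX9-mEGFP was 56 (9.27%). Among the DEGs, 550 of the higher and 1368 of the lower genes were protein coding, and 49 and 236 were long non-coding RNAs (lncRNAs).

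**Figure D1:**
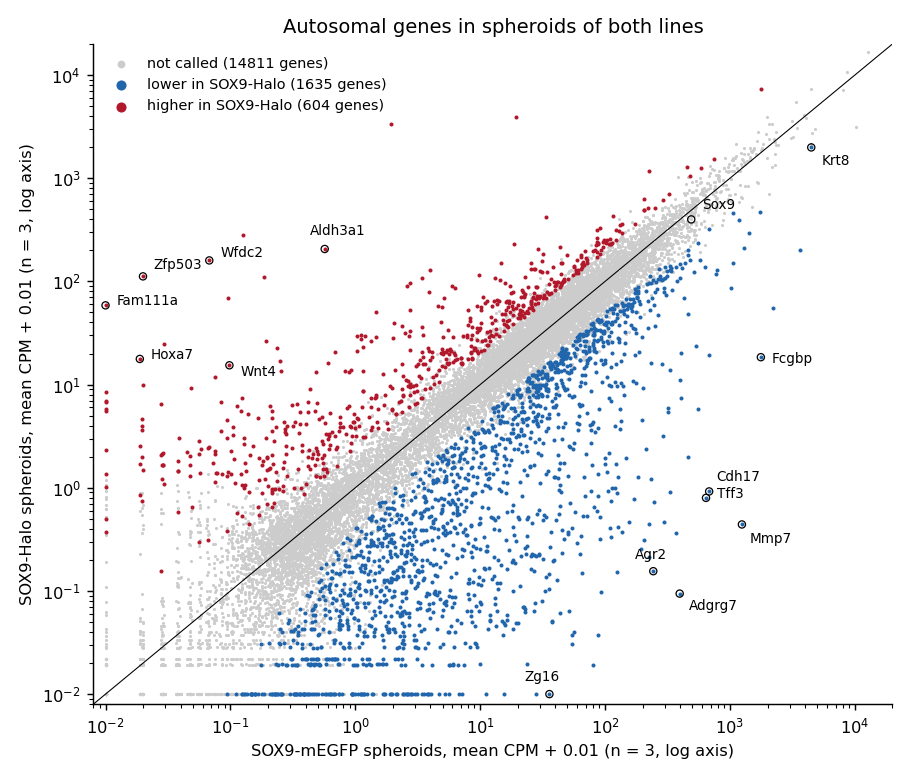
Mean level of each autosomal gene tested in SOX9-mEGFP (x axis) and SOX9-Halo spheroids (y axis), in CPM plus 0.01 on log axes, with n = 3 libraries each; red points are the 604 higher and blue points the 1635 lower DEGs, and the line marks equal levels. The blue points reach down to 0 CPM in SOX9-Halo (lowest row), as for Zg16, while Sox9 lies near the line.

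Among genes with a mean of at least 5 CPM over the 6 libraries, no overlap between the lines and a name other than a clone or model number, the 12 largest fitted rises were those of Fam111a, Zfp503, Wfdc2, Hoxa7, Tgfb3, Padi4, Alpk3, Elf5, Aldh3a1, Ppp1r36dn, Wnt4 and Nat8l, and most were at or near 0 in SOX9-mEGFP spheroids. Fam111a (ENSMUSG00000024691, chr19:12523104-12567134), which encodes a protease that acts at stalled DNA replication, had 45.3, 55.0 and 75.3 CPM in the SOX9-Halo libraries and no count in any SOX9-mEGFP library. With the floor of 3 counts per library this was at least 708-fold higher (adjusted p = 4.9e-06, edgeR). Zfp503 (ENSMUSG00000039081, chr14:22033983-22039669), a zinc finger repressor of transcription, had 80.9, 114 and 141 CPM against 0, 0.0298 and 0 CPM, a ratio of the higher to the lower line of 12207 with a counting interval from 2191 to 482137 (95%, counting error only; adjusted p = 7.6e-10, edgeR). Wfdc2 (ENSMUSG00000017723, chr2:164403475-164411377), a secreted protein of airway and duct epithelium, was counted at 134, 156 and 188 CPM and at 0, 0.0597 and 0.114 CPM, a log2 fold change of 11.37 (SE 0.54, edgeR adjusted p = 3.6e-09). In none of these genes did the lines overlap. Enzymes and regulators were among the other rises. Aldh3a1, an aldehyde dehydrogenase best known from the cornea, had 206 ± 60.4 CPM in SOX9-Halo and 0.559 ± 0.145 CPM in SOX9-mEGFP spheroids (SD, n = 3). Padi4, which converts arginine residues to citrulline, had 69.5 ± 5.92 and 0.0851 ± 0.0317 CPM. Elf5, an ETS family transcription factor of mammary and placental epithelium, had 94.8, 96.1 and 141 CPM against 0.0264, 0.298 and 0.199 CPM, a log2 fold change of 9.31 (SE 0.78, edgeR adjusted p = 6.9e-07).

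By the same limits, the 12 largest fitted falls were those of Zg16, Smpdl3a, Efemp1, Adgrg7, Gnai1, Mmp7, Basp1, Fam149a, Cstf2t, Agr2, Itpripl2 and Gramd1a. Mmp7 (ENSMUSG00000018623, chr9:7692091-7699587), the matrix metalloproteinase that activates Paneth cell defensins, was one of the most abundant lower DEGs per kilobase. It had 1327, 1305 and 1106 CPM in the SOX9-mEGFP libraries. In SOX9-Halo spheroids it was counted at 0.494, 0.423 and 0.376 CPM, so that it fell by 11.50 on the log2 scale (SE 0.37, edgeR adjusted p = 9.6e-11). Adgrg7 (ENSMUSG00000022755, chr16:56544972-56616218), an adhesion G protein-coupled receptor of the intestine, had 0.0353, 0.0564 and 0.161 CPM in SOX9-Halo and 411, 482 and 294 CPM in SOX9-mEGFP libraries, a log2 fold change of -12.07 (SE 0.77, edgeR adjusted p = 5.3e-08). Zg16 (ENSMUSG00000049350, chr7:126649302-126686500), a goblet cell lectin that binds bacterial cell walls, had no count in SOX9-Halo and 27.7, 30.2 and 49.6 CPM in SOX9-mEGFP libraries, at least 401-fold lower in SOX9-Halo (adjusted p = 0.0011, edgeR). Smpdl3a and Gnai1, which encode a phosphodiesterase and an inhibitory G protein subunit, were likewise without a count in SOX9-Halo, at least 309.8-fold and at least 124-fold lower. Efemp1, an extracellular matrix fibulin, and Basp1, a membrane protein of growth cones, stood at 80.5 ± 12.7 and 88.4 ± 15.9 CPM (SD, n = 3) in SOX9-mEGFP spheroids and at 0.0250 and 0.161 CPM in Halo-NLS organoids, and in SOX9-mEGFP budding organoids they had 0.310 and 0.114 CPM (means, n = 3).

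Large differences were not uniform in where the gene was expressed otherwise. For a view of genes that were on in one line and off in the other, DEGs with a mean below 0.1 CPM in one spheroid line and at least 5 CPM in the other were collected, a rule set after the values had been seen. This gave 91 genes near 0 in SOX9-Halo spheroids and 17 near 0 in SOX9-mEGFP spheroids. Of the 91, 72 had at least 1 CPM in budding organoids of the same SOX9-Halo line, 75 in SOX9-mEGFP budding organoids and 63 in Halo-NLS organoids, and 0 of the 91 were called between the budding lines, where 77 of the genes tested were (0.452%; edgeR's quasi-likelihood test), with 14 of the 91 at an unadjusted p under 0.05. Casp1, Pycard and Naip1, components of the inflammasome that senses bacterial products, are examples chosen after their values were seen, as were Snrpn and the genes named for their CG pairs. Casp1 had 76.7 CPM in SOX9-Halo and 76.7 CPM in SOX9-mEGFP budding organoids (means, n = 3), 36.5, 31.2 and 14.0 CPM in the SOX9-mEGFP spheroid libraries and 0.0353, 0.0282 and 0.134 CPM in the SOX9-Halo spheroid libraries. Pycard, the inflammasome adaptor, had 0.0480 ± 0.0284 CPM in SOX9-Halo and 12.0 ± 7.24 CPM in SOX9-mEGFP spheroids (SD, n = 3). Naip1, a sensor with close paralogs whose reads could be split, had 0.0541 ± 0.0707 and 51.4 ± 29.2 CPM. Cstf2t, a retrocopy-derived factor of mRNA 3' end formation, had 14.9 CPM in SOX9-Halo budding organoids and 0, 0.0282 and 0 CPM in the SOX9-Halo spheroid libraries. Snrpn, an imprinted gene for a splicing protein, had 7.78 ± 1.82 CPM in SOX9-Halo budding organoids (SD, n = 3), 6.48, 5.70 and 4.54 CPM in the SOX9-mEGFP spheroid libraries and 1 count in all SOX9-Halo spheroid libraries together, a ratio of the higher to the lower line of 565 with a counting interval from 101 to 22330.3.

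Of the 17 genes near 0 in SOX9-mEGFP spheroids, 14 had less than 0.1 CPM in budding organoids of the same line too. Fam111a, Zfp503 and the lncRNAs 1700030C10Rik and Ppp1r36dn were also called between the budding lines, and all 4 had at least 5 CPM on average in Halo-NLS and SOX9-Halo budding organoids. Zfp503 had 49.5 ± 2.33 CPM in Halo-NLS, 34.8 ± 7.33 CPM in SOX9-Halo budding and 0.0636 ± 0.0283 CPM in SOX9-mEGFP budding organoids (SD, n = 3), a log2 fold change of 8.94 between the budding lines (adjusted p = 2.5e-08, edgeR). Fam111a had 8.31 ± 5.35, 15.3 ± 11.4 and 0.0585 ± 0.0722 CPM in the same order, a log2 fold change of 7.78 (adjusted p = 0.00076, edgeR). 1700030C10Rik was at 0 in all SOX9-mEGFP libraries of both shapes and at 9.21 CPM in Halo-NLS, 5.79 CPM in SOX9-Halo budding and 8.39 CPM in SOX9-Halo spheroids (means, n = 3). The other 13, among them Wfdc2, Hoxa5, Hoxa7, Hoxa10, Tgfb3, Padi4, Wnt4, Dmrt2 and Tfap2c, were seen at 5 CPM or more in SOX9-Halo spheroids, with 0.511 CPM in Igf2bp1 as the highest Halo-NLS mean.

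**Figure D2:**
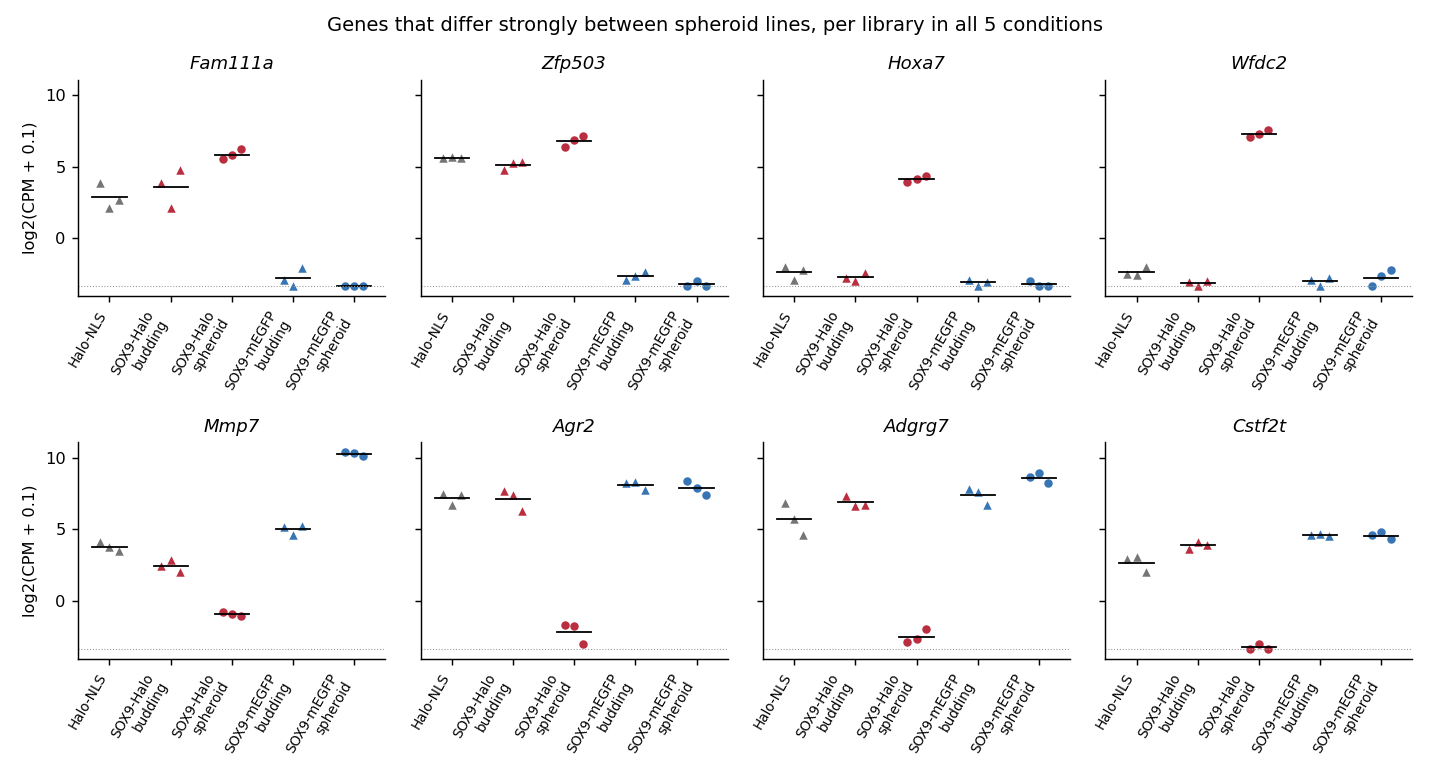
Level of 8 genes with large differences between the spheroid lines, as log2 of CPM plus 0.1, in each of the 3 libraries of the 5 conditions; triangles are organoids with a budding shape, circles are spheroids, black lines are means and the dotted line is 0 CPM. Fam111a and Zfp503 are near 0 in SOX9-mEGFP libraries of both shapes, Hoxa7 and Wfdc2 are high in SOX9-Halo spheroids, and Agr2, Adgrg7 and Cstf2t are low in SOX9-Halo spheroids and present in the other 4 conditions.

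To show the DNA that lies upstream of such genes, the 250 bases before the start of 6 of them are printed, 3 higher (Hoxa5, Hoxa10 and Zfp503) and 3 lower (Mmp7, Adgrg7 and Atoh1) in SOX9-Halo spheroids. They are RefSeq sequences placed on GRCm39 by an exact and unique match, none overlaps an annotated exon, and they are written 5' to 3' along the strand of the gene with each CG dinucleotide, the site of DNA methylation in mammals, in capitals. Hoxa5 lies at chr6:52181568-52181817 on the minus strand with 28 CG pairs, Hoxa10 at chr6:52217835-52218084 on the minus strand with 7, and Zfp503 at chr14:22039670-22039919 on the minus strand with 13. Mmp7 lies at chr9:7691841-7692090 on the plus strand with 0 CG pairs, Adgrg7 at chr16:56616222-56616471 on the minus strand with 1, and Atoh1 at chr6:64705859-64706108 on the plus strand with 14.
Hoxa5: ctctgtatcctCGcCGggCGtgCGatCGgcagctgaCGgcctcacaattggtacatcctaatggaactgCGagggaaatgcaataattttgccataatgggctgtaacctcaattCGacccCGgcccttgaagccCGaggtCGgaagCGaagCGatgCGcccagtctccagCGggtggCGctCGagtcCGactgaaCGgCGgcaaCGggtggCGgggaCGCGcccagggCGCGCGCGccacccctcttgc
Hoxa10: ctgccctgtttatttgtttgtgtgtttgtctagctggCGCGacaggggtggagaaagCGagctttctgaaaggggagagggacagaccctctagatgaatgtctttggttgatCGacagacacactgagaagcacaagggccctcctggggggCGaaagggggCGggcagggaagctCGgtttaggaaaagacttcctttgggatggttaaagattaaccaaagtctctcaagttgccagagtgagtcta
Zfp503: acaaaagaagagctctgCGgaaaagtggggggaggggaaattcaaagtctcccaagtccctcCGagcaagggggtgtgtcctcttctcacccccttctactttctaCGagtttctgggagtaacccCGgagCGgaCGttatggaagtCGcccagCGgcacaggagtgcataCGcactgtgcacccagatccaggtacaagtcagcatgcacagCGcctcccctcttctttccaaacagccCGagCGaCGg
Mmp7: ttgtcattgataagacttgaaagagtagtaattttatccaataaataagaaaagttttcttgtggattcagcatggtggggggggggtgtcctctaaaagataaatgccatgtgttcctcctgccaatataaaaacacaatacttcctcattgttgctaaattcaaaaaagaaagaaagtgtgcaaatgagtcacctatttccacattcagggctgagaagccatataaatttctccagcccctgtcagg
Adgrg7: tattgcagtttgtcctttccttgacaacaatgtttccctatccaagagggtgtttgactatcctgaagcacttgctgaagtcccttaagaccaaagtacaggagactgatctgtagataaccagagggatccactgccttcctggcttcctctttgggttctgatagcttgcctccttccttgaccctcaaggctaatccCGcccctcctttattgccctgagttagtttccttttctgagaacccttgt
Atoh1: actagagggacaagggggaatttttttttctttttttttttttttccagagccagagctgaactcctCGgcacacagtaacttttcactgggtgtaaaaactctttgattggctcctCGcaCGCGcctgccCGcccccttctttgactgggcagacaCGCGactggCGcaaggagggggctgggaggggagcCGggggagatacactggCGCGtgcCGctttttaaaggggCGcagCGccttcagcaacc

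Over all genes, start regions of 300 bases (250 before and 50 after the start of the Ensembl-canonical transcript, GENCODE annotation on GRCm39) held a median of 15 CG pairs. The median was 14 for the 604 higher and 8 for the 1635 lower DEGs, 6 for the 91 genes near 0 in SOX9-Halo and 12 for the 17 near 0 in SOX9-mEGFP spheroids. With protein-coding genes alone it was 17 for all, 15 for the higher and 10 for the lower genes. Hnf4g with 1 pair, Lypd8 with 1, Casp1 with 3 and Pycard with 3 were at the low end of the genes near 0 in SOX9-Halo, whereas Gnai1 had 45, Ncs1 39 and Basp1 35, so CG-rich and CG-poor starts were both among them. Letters of binding motifs were counted on either strand. The SOX letters ACAAAG were in 16.5% of all start regions, 13.4% of those of higher and 20.4% of those of lower genes. For the HNF4 letters CAAAGTCCA these shares were 0.581%, 0.828% and 1.77%, for the CDX letters TTTATGG or TTTATTG 5.74%, 4.30% and 6.97%, and for the GATA letters AGATAA 9.06%, 7.62% and 11.3%. For the TEAD letters GGAATG they were 13.4%, 13.2% and 15.0%, for the AP-1 letters TGACTCA 4.37%, 3.48% and 6.61%, and for CCAAT 38.1%, 39.1% and 36.9%. The SOX and HNF4 letters share CAAAG in part of their length, and these are counts of letters, not of bound sites. The start regions also differed in base composition. Their median share of G and C was 56.7% for all, 58.7% for higher and 54.3% for lower genes. Its part in the shares of letters was not tested.

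HOX genes, which encode homeodomain factors that give cells their position along the body axis, were called in 1 direction. Of 39 HOX genes listed, 9 passed the filter on low counts, and all 9 belong to the Hoxa cluster on chromosome 6. Of these, 6 were upregulated in SOX9-Halo (among them Hoxa3, Hoxa5, Hoxa6, Hoxa7 and Hoxa10) and none was downregulated, beside 3.54% and 9.59% of all genes. Their median log2 fold change was 7.08 (6.06 with genes at 0 in one line at their bound), beside -0.05 for all genes. Hoxa5, Hoxa7 and Hoxa10 had means of at most 0.114 CPM in every condition other than SOX9-Halo spheroids. They could thus pass the filter only through the condition where they were high, and this set their direction in advance. Hoxa7 (ENSMUSG00000038236, chr6:52191471-52198834) had 15.2, 17.9 and 20 CPM in SOX9-Halo and 0.0264, 0 and 0 CPM in SOX9-mEGFP libraries, a log2 fold change of 10.40 (SE 0.61, edgeR adjusted p = 2.2e-08). Hoxa5 (ENSMUSG00000038253, chr6:52178734-52181567) had 3.78, 6.2 and 6.47 CPM and Hoxa10 (ENSMUSG00000000938, chr6:52208164-52217834) 6.6, 5.78 and 5.15 CPM in SOX9-Halo, and neither had a count in SOX9-mEGFP libraries, so that they were at least 66.5-fold and at least 68.4-fold higher. Hoxa6 was also without a count in SOX9-mEGFP and at 2.31 ± 0.548 CPM (SD, n = 3) in SOX9-Halo, at least 28.0-fold higher. The 3 HOX genes that were not called, Hoxa2, Hoxa4 and Hoxa9, had fitted log2 fold changes of 4.65, 7.08 and 6.10 at under 1 CPM in SOX9-Halo, and the 3 libraries of each line did not overlap. Hoxa2 and Hoxa9 were called when the fit held the 6 spheroid libraries only. In budding organoids of the SOX9-Halo line Hoxa7 was at 0.0545 ± 0.0298 CPM (SD, n = 3) and in Halo-NLS organoids at 0.101 ± 0.0616 CPM. Counting was without strand, so reads of antisense transcripts of the cluster cannot be told apart from those of the genes.

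Transcription factors of intestinal identity were lower in SOX9-Halo spheroids. Of 25 tested, 13 were downregulated and 2 upregulated, with a median log2 fold change of -1.87. Cdx2 (ENSMUSG00000029646, chr5:147237615-147244091), the homeodomain factor that specifies the intestine, had 2.89, 2.96 and 2.23 CPM in SOX9-Halo and 103, 65.3 and 61.6 CPM in SOX9-mEGFP libraries, against 438 ± 83.3 CPM (SD, n = 3) in Halo-NLS organoids. Both lines were thus below Halo-NLS, and the log2 fold change between them was -4.83 (SE 0.28, edgeR adjusted p = 2.2e-08). Cdx1 (ENSMUSG00000024619, chr18:61151934-61169314) was low in both, with 0.0706, 0.0846 and 0.349 CPM and 7.75, 2.66 and 2.04 CPM against 366 ± 69.1 CPM in Halo-NLS organoids, a log2 fold change of -4.54 (SE 0.58, edgeR adjusted p = 3.8e-05). HNF4A and its paralog HNF4G, nuclear receptors that maintain enterocyte genes, were both lower. Hnf4a (ENSMUSG00000017950, chr2:163348728-163414830) had 59.4, 45.9 and 38.6 against 535, 468 and 370.0 CPM, a log2 fold change of -3.25 (SE 0.26, edgeR adjusted p = 3.8e-07). Hnf4g (ENSMUSG00000017688, chr3:3573084-3724860) had 0.0706, 0 and 0.0268 against 32.0, 15.6 and 7.41 CPM, a ratio of the higher to the lower line of 629.9 with a counting interval from 216 to 3054. Creb3l3, a factor of intestinal lipid metabolism, had 0.212 ± 0.153 and 26.9 ± 8.62 CPM (SD, n = 3), a log2 fold change of -7.03 (SE 0.69, edgeR adjusted p = 3.1e-06). Nr1i2, the xenobiotic receptor PXR, Ppara, Onecut2, Pdx1, Foxa3, Gata6 and Klf4 were lower too, with log2 fold changes from -6.66 for Nr1i2 to -1.87 for Klf4. Gata5 was among the upregulated members, with a log2 fold change of 1.40, and its paralog Gata6 was called lower, with -1.98. In other factor families few members were called, and Klf4 and Foxa3 among them also belong to the identity list above. Over all genes, too, most calls were lower (73.0%). Of 7 SOX genes Sox12 and Sox6 were lower, of 13 KLF genes Klf9 and Klf4, and of 19 FOX genes Foxn3 and Foxa3, with none higher, beside 9.59% of all genes lower and 3.54% higher. The call of Sox6 was lost in every fit that left out 1 library. Gata4, Klf5, Foxa2 and Elf3 were not called. The 95% intervals of their log2 fold changes ran from 0.36 to 1.44 for Gata4, from -1.06 to 0.45 for Klf5, from -0.98 to 0.52 for Foxa2 and from -1.13 to -0.19 for Elf3.

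**Figure D3:**
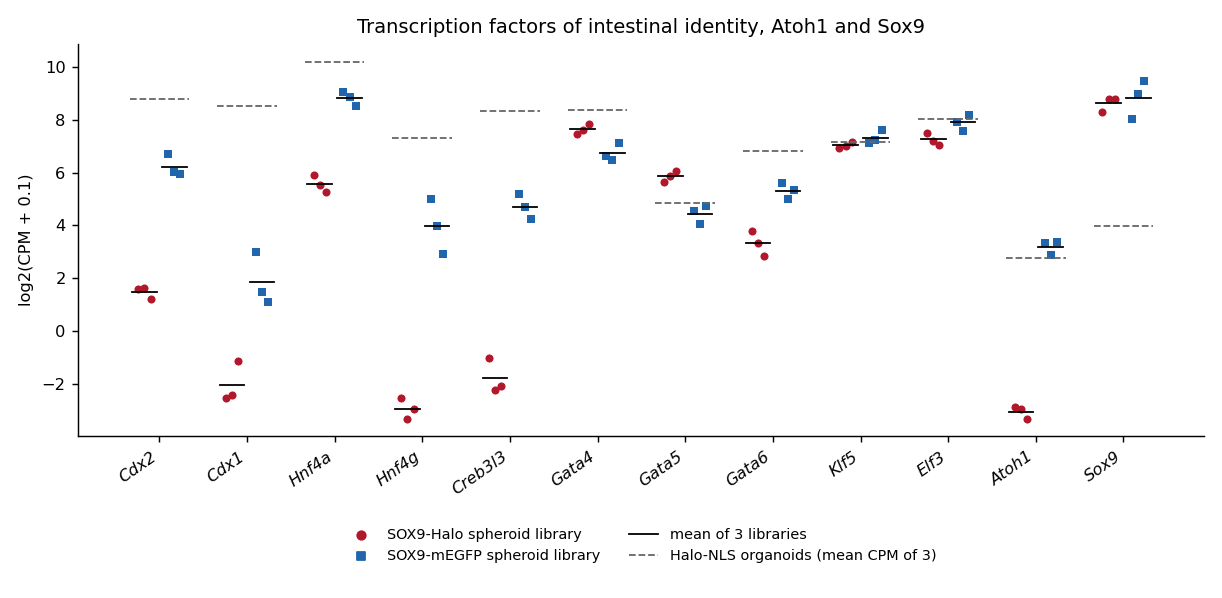
Level of 10 transcription factors of intestinal identity, Atoh1 and Sox9 in each spheroid library, as log2 of CPM plus 0.1; red circles are SOX9-Halo and blue squares SOX9-mEGFP libraries, black lines are means of 3 libraries and the dashed line is the mean of Halo-NLS organoids. Cdx2, Cdx1, Hnf4a, Hnf4g and Creb3l3 fall in the order Halo-NLS, SOX9-mEGFP, SOX9-Halo, and Gata5 is highest in SOX9-Halo.

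Goblet cell genes were the list with the largest share of members lower in SOX9-Halo among the lists examined. Of 22 tested, 21 were lower and none higher, with a median log2 fold change of -4.97. Over all genes tested, 9.59% were lower and 3.54% higher, with a median of -0.05, to be set beside the mucin genes below too. In bulk RNA, fewer cells of a type and less RNA per cell cannot be told apart. Atoh1 (ENSMUSG00000073043, chr6:64706109-64708229), the basic helix-loop-helix factor that commits cells to the secretory lineage, had 0.0353, 0.0282 and 0 CPM in SOX9-Halo and 9.97, 7.28 and 10.1 CPM in SOX9-mEGFP libraries, a ratio of the higher to the lower line of 464 with a counting interval from 128.4 to 3830.2. In Halo-NLS organoids it stood at 6.76 ± 0.694 CPM (SD, n = 3). Agr2 (ENSMUSG00000020581, chr12:36042904-36054086), the disulfide isomerase needed for mucin folding, had 0.212, 0.197 and 0.0268 against 323, 236 and 171 CPM, a log2 fold change of -10.72 (SE 0.62, edgeR adjusted p = 2.2e-08). Tff3 (ENSMUSG00000024029, chr17:31344280-31348620), the trefoil peptide secreted with mucus, had 1.13, 0.564 and 0.671 against 678, 592 and 659.7 CPM, and Spink4 (ENSMUSG00000028415, chr4:40920044-40931396), a protease inhibitor of goblet granules, 0.529, 0.366 and 0.456 against 352, 315 and 219 CPM. For Tff3 and Spink4 the log2 fold changes were -9.68 (SE 0.61, edgeR adjusted p = 4.9e-08) and -9.35 (SE 0.60, edgeR adjusted p = 5.4e-08). Muc2 (ENSMUSG00000025515, chr7:141276583-141308430), the gel-forming mucin, was at 0.353, 0.141 and 0.161 CPM in SOX9-Halo and varied among SOX9-mEGFP libraries, at 3.41, 26.7 and 59.1 CPM, with no overlap (log2 fold change -7.11, SE 1.61, edgeR adjusted p = 0.0043). Fcgbp, a mucus protein, was still at 18.4 ± 3.67 CPM (SD, n = 3) in SOX9-Halo against 1767 ± 727 CPM. Spdef, which acts after Atoh1 in goblet cell maturation, was at 4.01 ± 0.676 against 12.4 ± 4.12 CPM. Gfi1, a repressor that favours goblet and Paneth over enteroendocrine fate, was the member not called, at 1.31, 1.55 and 1.37 against 0.793, 0.537 and 1.02 CPM. Of all 8 mucin genes tested, 5 were lower (Muc13, Muc17, Muc2, Muc4 and Muc1), and the membrane mucin Muc13 went from 248 ± 74.4 CPM in SOX9-mEGFP to 0.713 ± 0.491 CPM in SOX9-Halo spheroids (SD, n = 3).

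Fewer members of the other secretory lists were called, beside 9.59% lower and 3.54% higher of all genes. Of 17 Paneth cell products, 6 were lower (Mmp7, Pnliprp2, Reg3g, Reg3b, Lyz1 and Defa24) and none higher. Lyz1 (ENSMUSG00000069515, chr10:117123698-117128775), Paneth cell lysozyme, had 0.318, 0.366 and 0.832 against 23.2, 10.8 and 7.49 CPM and 709.9 ± 96.4 CPM (SD, n = 3) in Halo-NLS organoids, above both spheroid lines. Mmp7, in contrast, was higher in SOX9-mEGFP spheroids than the 13.9 ± 2.99 CPM of Halo-NLS organoids. Of 27 enteroendocrine genes, 5 were lower (Sct, Nts, Insm1, Neurog3 and Cpe) and none higher. Neurog3, the factor that starts the endocrine lineage, was at 0.504 ± 0.218 CPM in SOX9-mEGFP spheroids and at 20.7 ± 12.6 CPM in Halo-NLS organoids (SD, n = 3). Tuft cell markers went both ways, with 3 of 13 higher and 2 lower. Ptgs1, the constitutive cyclooxygenase, had 87.7, 91.7 and 94.1 CPM in SOX9-Halo and 4.71, 6.00 and 7.10 CPM in SOX9-mEGFP libraries, a log2 fold change of 3.94 (SE 0.26, edgeR adjusted p = 7.2e-08). Ltc4s and Plcg2 were the other higher members, and Avil, an actin-binding protein of tuft cells, and Il17rb were lower.

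Genes of the absorptive surface were lower in SOX9-Halo as well. Of 16 brush-border digestive enzymes 9 were lower and 1 higher (median -4.2). Of 18 structural genes of the microvillus 14 were lower and none higher (median -3.84). Both stand beside 9.59% lower and 3.54% higher of all genes. Myo7b (ENSMUSG00000024388, chr18:32092287-32170014), the motor that tethers microvillus tips, had 0.282, 0.254 and 0.537 CPM in SOX9-Halo and 347, 362 and 408 CPM in SOX9-mEGFP libraries, a log2 fold change of -9.99 (SE 0.48, edgeR adjusted p = 3.6e-09). Halo-NLS organoids had 292 ± 123 CPM (SD, n = 3). Cdhr5, the protocadherin that joins microvilli to each other, was lower as well, with 0.299 ± 0.217, 206 ± 15.6 and 621 ± 210.0 CPM in SOX9-Halo, SOX9-mEGFP and Halo-NLS. Vil1, which encodes the actin bundler villin, had 138, 119 and 96.7 against 840.5, 687 and 775 CPM, a log2 fold change of -2.70 (SE 0.27, edgeR adjusted p = 3.8e-06), whereas Ezr, which links actin to the membrane, had a 95% interval of -0.49 to 0.47. Mep1a and Mep1b, which encode the meprin subunits, were at 0.0395 ± 0.0152 and 0.0593 ± 0.0545 CPM in SOX9-Halo and at 37.7 ± 21.1 and 22 ± 15.0 CPM in SOX9-mEGFP spheroids (SD, n = 3). The maltase Mgam (ENSMUSG00000068587, chr6:40605765-40746057) had 8.08, 6.37 and 7.73 against 352, 454 and 420.2 CPM, a log2 fold change of -5.79 (SE 0.60, edgeR adjusted p = 4.6e-06). Anpep, aminopeptidase N, was the exception, with 596, 602 and 705 CPM in SOX9-Halo and 148, 171 and 299 CPM in SOX9-mEGFP libraries, a log2 fold change of 1.62 (SE 0.38, edgeR adjusted p = 0.0058). Cdh17, an intestinal cadherin, had 0.565, 0.479 and 1.69 against 818, 669 and 557 CPM, and 719.9 ± 306 CPM (SD, n = 3) in Halo-NLS organoids, a mean within the range of the SOX9-mEGFP libraries.

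Of 28 genes of lipid absorption, 14 were lower and 1 higher, beside 9.59% and 3.54% of all genes. Apoa1, the main protein of high-density lipoprotein, had 0.212, 0.197 and 0.671 against 165, 165 and 81.3 CPM, a log2 fold change of -8.52 (SE 0.74, edgeR adjusted p = 1e-06), and the ileal bile acid transporter Slc10a2 had 0.0706, 0.0282 and 0.0805 against 25, 32.3 and 9.56 CPM. Plin2, a coat protein of lipid droplets, was the higher member, at 238 ± 64.3 against 86.3 ± 15.7 CPM (SD, n = 3). The list's median was -3.57 as fitted and -2.03 with genes at 0 in one line at their bound. Of 46 cytochrome P450 genes, which oxidise drugs, steroids and fatty acids, 25 were lower and 1 higher, and of 61 conjugating enzymes and carboxylesterases 25 were lower and 5 higher. Cyp2c55 had 0.918, 0.676 and 2.04 CPM in SOX9-Halo and 409, 197 and 93.4 CPM in SOX9-mEGFP libraries (log2 fold change -7.57, SE 0.58, edgeR adjusted p = 2.9e-07). Cyp2c, Ugt2b and glutathione transferase genes have near-identical copies between which reads may be split. The higher P450 gene was Cyp21a1, the steroid 21-hydroxylase of the adrenal gland, with 7.24, 6.57 and 6.28 CPM in SOX9-Halo and no count in SOX9-mEGFP libraries, at least 78.7-fold higher. It was at 0 in Halo-NLS libraries as well. Gsto1, a glutathione transferase of the omega class, was among the higher conjugating enzymes at 1289 ± 158 against 454 ± 5.60 CPM (SD, n = 3). Of 269 solute carriers 56 were lower and 8 higher, and of 35 ABC transporters 9 were lower, among them the efflux pumps Abcb1a, with 0.520 ± 0.364 against 66.2 ± 30.9 CPM, and Abcc2, with 0.581 ± 0.455 against 86.9 ± 23.2 CPM (SD, n = 3), and Abcg4 was higher.

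**Figure D4:**
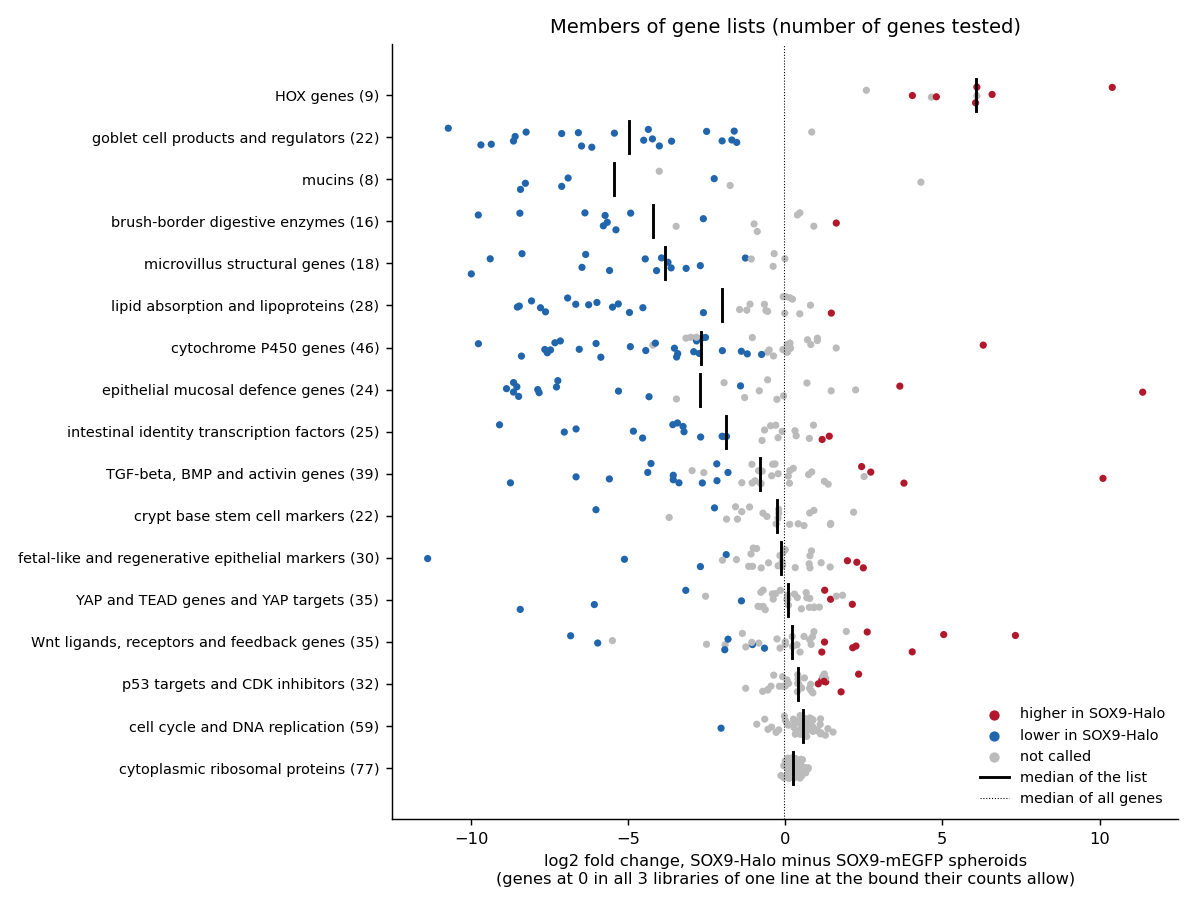
Log2 fold change (SOX9-Halo minus SOX9-mEGFP spheroids, x axis) of the tested members of 17 gene lists, with the number tested in brackets; red points were called higher, blue points lower, grey points were not called, black bars are list medians and the dotted line is the median of all autosomal genes tested. Goblet genes lie to the left except Gfi1, HOX genes to the right, and ribosomal protein genes close to 0.

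Markers of crypt stem cells and of the fetal-like state were mostly not called, with 20 of 22 and 23 of 30 outside the threshold. Of 22 crypt base stem cell markers 2 were lower, Lgr5 and Msi1, beside 9.59% of all genes, and none was higher. Lgr5 (ENSMUSG00000020140, chr10:115286216-115423685), the R-spondin receptor, had 7.09, 10.2 and 11.5 CPM in SOX9-Halo and 35.9, 36.3 and 65.2 CPM in SOX9-mEGFP libraries, against 11.5 ± 0.622 CPM (SD, n = 3) in Halo-NLS organoids (log2 fold change -2.25, SE 0.55, edgeR adjusted p = 0.0069). Its call was lost with library sizes alone (edgeR adjusted p = 0.012) and in every fit that left out 1 library (edgeR adjusted p from 0.011 to 0.033). Olfm4, another stem cell marker, was low in both at 0.181 and 2.45 CPM (means, n = 3) and not called (adjusted p = 0.12, edgeR), but was called lower with the 6 spheroid libraries only in the fit (log2 fold change -3.67, edgeR adjusted p = 0.00027). Of 30 fetal-like and regenerative markers 3 were higher and 4 lower, beside 3.54% and 9.59% of all genes. Clu (ENSMUSG00000022037, chr14:66190200-66218999), clusterin, had 1898, 2071 and 2518 CPM in SOX9-Halo and 4729, 3821 and 4805 CPM in SOX9-mEGFP libraries, and 8.77 ± 6.06 CPM (SD, n = 3) in Halo-NLS organoids. The libraries of the lines did not overlap, and the difference missed the threshold (log2 fold change -1.04, 95% interval -2.01 to -0.08, adjusted p = 0.11, edgeR), while with the 6 spheroid libraries only it passed it (-1.02, edgeR adjusted p = 0.0013). Anxa1, annexin A1, had 1021 ± 43.7 and 463 ± 119 CPM (95% interval of the log2 fold change 0.04 to 2.24), and Ly6a, the stem cell antigen Sca-1, 195 ± 71.6 and 437 ± 26.4 CPM (95% interval -2.17 to -0.16). Neither was called in the fit over 15 libraries, and both were with the 6 spheroid libraries only, Anxa1 higher (log2 fold change 1.16, edgeR adjusted p = 0.0014) and Ly6a lower (-1.15, edgeR adjusted p = 0.0035). They lie on chromosomes 19 and 15, whose genes were shifted in the same directions. With the median of the chromosome subtracted, the fit over 15 libraries gave 0.58 for Anxa1 and -0.75 for Ly6a. The called members split. Il33, an alarmin cytokine, Gja1, a gap junction protein, and Anxa8 were higher, at 132 ± 8.96, 56.2 ± 9.39 and 63.3 ± 13.2 CPM in SOX9-Halo against 27.3 ± 1.35, 10.1 ± 1.17 and 16.1 ± 1.97 CPM. Spp1, osteopontin, Basp1, Anxa10 and Il1rn were lower. Spp1 (ENSMUSG00000029304, chr5:104582165-104589235) had 12.4, 18.8 and 27.0 CPM in SOX9-Halo and 813, 529.6 and 681 CPM in SOX9-mEGFP libraries, a log2 fold change of -5.12 (SE 0.50, edgeR adjusted p = 3e-06). Igf2bp1, an RNA-binding protein of fetal tissues, was the 1 of 12 oncofetal regulators that was called, at 5.93, 6.99 and 7.24 CPM in SOX9-Halo and 0.0793, 0.0298 and 0.114 CPM in SOX9-mEGFP libraries.

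Genes of other epithelia were likewise divided between the lines, beside 3.54% higher and 9.59% lower of all genes. Of 17 gastric genes 2 were higher and 6 lower. Pgc, pepsinogen C, had 284, 127 and 204 against 29.2, 28.7 and 29.5 CPM (log2 fold change 2.81, SE 0.47, edgeR adjusted p = 0.00039) and the water channel Aqp5 151 ± 21.1 against 25.3 ± 4.23 CPM (SD, n = 3), while Anxa10, Gkn2, Muc1, Atp4a, Capn8 and Capn9 were lower. Of 24 squamous and basal genes 2 were higher, Ivl and Krt15, and 4 lower, Dsg2, Dsg3, Krt6a and Sprr2a1. Ivl, involucrin of the cornified envelope, had 83.2, 36.8 and 38.0 CPM in SOX9-Halo and 2.62, 2.57 and 3.04 CPM in SOX9-mEGFP libraries (log2 fold change 4.26, SE 0.49, edgeR adjusted p = 1.4e-05), and Dsg3, a desmosomal cadherin, 112 ± 20.1 against 311 ± 87.2 CPM. Of 13 airway and duct genes 2 were higher, Wfdc2 and Ltf, and 4 lower, Pigr, Cftr, Muc4 and Spp1. Ltf, the iron-binding protein lactoferrin, had 313, 397 and 555 against 24.4, 32.6 and 44.1 CPM, a log2 fold change of 3.64 (SE 0.39, edgeR adjusted p = 6.7e-06). Aqp5 and Dsg3 were both above Halo-NLS organoids in either line, where they had 0.0369 and 0.282 CPM (means, n = 3). Of 11 colonic genes Guca2a and B3galt5 were lower.

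In the Wnt pathway, ligands, receptors and feedback genes were called in both directions. Of 35 tested 8 were higher and 6 lower, beside 3.54% and 9.59% of all genes. The ligands Wnt4, Wnt7a and Wnt7b, the receptors Fzd2 and Fzd6 and the inhibitors Nkd1, Notum and Kremen1 were higher. The ligand Wnt3, which Paneth cells secrete, the receptors Fzd1, Fzd4, Fzd5 and Fzd8 and the target gene Sp5 were lower. Wnt4 (ENSMUSG00000036856, chr4:137004373-137027037) had 23.7, 12.4 and 9.98 CPM in SOX9-Halo and 0.264, 0 and 0 CPM in SOX9-mEGFP libraries, a log2 fold change of 7.32 (SE 0.82, edgeR adjusted p = 1e-05). Nkd1, which dampens the pathway at Dishevelled, had 83.3, 144 and 161 against 1.40, 2.06 and 8.32 CPM (log2 fold change 5.04, SE 0.77, edgeR adjusted p = 0.00018), and Notum, a secreted deacylase of Wnt ligands, 13.5 ± 2.36 against 0.818 ± 0.108 CPM (SD, n = 3). Axin2, the most widely used target gene, was not called (77.1, 112 and 118 against 51.1, 42.9 and 69.3 CPM, adjusted p = 0.24, edgeR), and Sp5, another target, had 0.00940 ± 0.0163 against 1.54 ± 0.851 CPM. Nkd1 and Notum are themselves target genes of the pathway, so its targets were called in both directions.

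More BMP signalling genes were lower than higher, as held for all genes tested. Of 39 TGF-beta, BMP and activin genes 12 were lower and 4 higher, beside 9.59% and 3.54% of all genes. Their median log2 fold change was -0.80. The ligands Bmp2, Bmp3, Bmp4, Bmp6 and Bmp8b and the targets Id1, Id2, Id3 and Bambi were all lower in SOX9-Halo. Id3 (ENSMUSG00000007872, chr4:135870808-135873066), an inhibitor of basic helix-loop-helix factors, had 0.565, 0.705 and 0.429 CPM in SOX9-Halo, below the 11.6 ± 2.61 CPM (SD, n = 3) of Halo-NLS organoids, and 59.8, 48.4 and 64.0 CPM in SOX9-mEGFP libraries, above it (log2 fold change -6.66, SE 0.30, edgeR adjusted p = 2.7e-09). Id1 had 19.4, 14.1 and 14.7 against 102, 99.5 and 99.96 CPM (log2 fold change -2.64, SE 0.20, edgeR adjusted p = 2.6e-07), and the ligand Bmp8b 0.0691 ± 0.0121 against 31.3 ± 5.33 CPM (SD, n = 3). Smad6, the inhibitory SMAD, went the other way, with 6.64 ± 0.868 against 0.482 ± 0.0970 CPM, and so did the ligand Tgfb3 (ENSMUSG00000021253, chr12:86102756-86126301), with 22.2, 22.9 and 29.5 against 0, 0.0298 and 0.0284 CPM.

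YAP and Notch genes were called in both directions. Of 35 genes of the YAP list 3 were higher and 4 lower, and of 25 Notch genes 3 were higher and 3 lower, beside 3.54% and 9.59% of all genes. Yap1 had a 95% interval of the log2 fold change from -0.55 to 0.23 and its DNA-binding partner Tead4 from 0.01 to 1.52. The higher YAP targets were Myof, Ajuba and Amotl1 (log2 fold changes 1.25, 1.44 and 2.13), and the lower ones Arhgef17, Nt5e, F3 and Dock5. Among Notch genes the ligand Dll1 and the receptor Notch3 were higher, at 15.9 ± 4.37 and 88.8 ± 10.5 CPM in SOX9-Halo against 2.34 ± 1.18 and 28.5 ± 12.8 CPM (SD, n = 3), as was Numbl, and the ligand Dll4, the receptor Notch4 and Dtx1 were lower, while the target Hes1 had a 95% interval from -0.51 to 0.42. Of 33 genes of the EGF and MAPK list, Fgfr2 and Spry1 were higher and Fgfr4, Fgfr3, Etv1, Dusp6 and Spry4 lower. The fibroblast growth factor receptors therefore split, with Fgfr2 at 21.6 ± 5.24 against 2.75 ± 1.08 CPM and Fgfr4 at 9.73 ± 2.39 against 112 ± 11.4 CPM. Of 8 hedgehog genes the ligand Dhh and the inhibitor Sufu were higher and Hhat lower.

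Of 24 genes of mucosal defence, 12 were lower and 2 higher. Of all genes tested 9.59% were lower and 3.54% higher, which is to be set beside the lists below too. Pigr (ENSMUSG00000026417, chr1:130754397-130779986), the receptor that carries antibodies across the epithelium, had 2.01, 0.733 and 3.17 CPM in SOX9-Halo and 629, 470.2 and 294 CPM in SOX9-mEGFP libraries (log2 fold change -7.88, SE 0.56, edgeR adjusted p = 1.6e-07). Dmbt1, a mucin-like scavenger of bacteria, had 0.891 ± 0.555 against 333 ± 105 CPM (SD, n = 3). Duox2 and its maturation factor Duoxa2, which make hydrogen peroxide at the surface, had 20.2 ± 11.5 and 9.37 ± 3.49 CPM in SOX9-mEGFP spheroids and 0.0386 ± 0.0403 and 0.0183 ± 0.0159 CPM in SOX9-Halo spheroids, with 0.892 ± 0.410 and 0.223 ± 0.0819 CPM in Halo-NLS organoids. Pglyrp1, a peptidoglycan recognition protein and one of the most abundant lower DEGs per kilobase, had 577, 440.2 and 400.0 against 1672, 1726 and 1869 CPM (log2 fold change -1.89, SE 0.19, edgeR adjusted p = 4e-06). Chemokines and cytokines were lower for 9 and higher for 3 of 31. Ccl9 had 0.0706, 0.0282 and 0.0537 against 53.8, 45.1 and 31.8 CPM, a ratio of the higher to the lower line of 885 with a counting interval from 379 to 2726. Cxcl1, which attracts neutrophils, was called higher at 4.2, 0.479 and 0.483 CPM in SOX9-Halo against 0.185, 0.119 and 0.0568 CPM in SOX9-mEGFP libraries. Replicate 1 of SOX9-Halo was far above the others. The call was lost without that library (log2 fold change 1.96, edgeR adjusted p = 0.072) and with the 6 spheroid libraries only (edgeR adjusted p = 0.014). It was also lost whichever SOX9-mEGFP library was left out. Interferon-stimulated genes were lower for 7 and higher for 2 of 50, as for Oasl1, an oligoadenylate synthetase-like protein, with 8.15, 2.14 and 1.96 against 70.9, 74.9 and 80.2 CPM. Antigen presentation genes were called in both directions. Of 30 tested, H2-Q1, H2-Q2, H2-Q7, H2-M3, H2-T23 and Cd74 were lower, and Tap1, H2-Eb1, H2-DMb1 and the transactivators Ciita and Nlrc5 higher, at 1.11 ± 0.186 and 1.91 ± 1.19 CPM against 0.0994 ± 0.0981 and 0.0965 ± 0.0874 CPM (SD, n = 3). H2-Q genes have near-identical copies, and their counts are uncertain.

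Few genes of housekeeping functions were called, beside 3.54% higher and 9.59% lower of all genes. None of 77 cytoplasmic ribosomal protein genes and none of 29 genes of the unfolded protein and integrated stress responses was called by edgeR or DESeq2. An unadjusted p under 0.05 (edgeR) held for 11 and 15 of them, and for 5984 of all 17050 autosomal genes tested. Fitted log2 fold changes were above 0 for 73 of the 77 (median 0.26) and below 0 for 24 of the 29 (median -0.54). Of 89 respiratory chain genes 1 was higher, Ndufb8, and 1 lower, Cox6b2. Of 59 cell cycle genes 1 was called, E2f2, which was lower at 5.46 ± 0.881 against 22.5 ± 5.82 CPM (SD, n = 3). The fitted log2 fold change was above 0 for 51 of the 59, with a median of 0.57 beside -0.05 for all genes. Mki67, which marks cycling cells, had 29.8, 38.0 and 51.0 CPM in SOX9-Halo and 28.4, 65.3 and 129 CPM in SOX9-mEGFP libraries, a wide and overlapping range with a 95% interval of the log2 fold change from -2.63 to 0.82. Of 32 p53 targets and cyclin-dependent kinase inhibitors, 6 were higher and none lower. The death receptor Fas had 18.1, 13.3 and 16.3 against 4.18, 2.95 and 2.33 CPM (log2 fold change 2.33, SE 0.34, edgeR adjusted p = 0.00011), Bax, which permeabilises mitochondria, 195, 234 and 214 against 108, 95 and 84.4 CPM (log2 fold change 1.16, SE 0.18, edgeR adjusted p = 0.00018), and Cdkn2c, an inhibitor of CDK4 and CDK6, 57.1 ± 12.8 against 16.7 ± 1.41 CPM. Phlda3, Bbc3 and Plk2 were the other higher members, with log2 fold changes of 1.23, 1.29 and 1.05. Cdkn1a, the best-known target, was not called, with 393, 256 and 224 and 309, 214 and 289 CPM. Fas lies on chromosome 19, whose genes were higher in SOX9-Halo by a median of 0.61 relative to all autosomal genes on the log2 scale. Of 25 stress and immediate early genes 2 were higher and 3 lower. The small heat shock genes parted, with Hspb8 at 78.1 ± 3.38 against 22.1 ± 8.07 CPM and Hspb1 at 0.00894 ± 0.0155 against 5.67 ± 2.05 CPM (SD, n = 3). Of 23 cholesterol genes 2 were lower, Sqle among them, and of 29 NRF2 antioxidant genes Hmox1 was higher and Nqo1, Gstm3, Abcc2, Akr1b10 and Gsta1 lower. Of 16 regulators of DNA methylation, Uhrf2 alone was called, higher with a log2 fold change of 1.14 (SE 0.27, edgeR adjusted p = 0.0059), and it too lies on chromosome 19. Its call was lost with library sizes alone, in every fit that left out 1 library (edgeR adjusted p from 0.011 to 0.029) and after the median of its chromosome was subtracted (log2 fold change 0.58). The maintenance methyltransferase Dnmt1 had a 95% interval from -0.25 to 1.37.

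Adhesion genes were called in both directions. Of all genes tested 9.59% were lower and 3.54% higher, the shares to set beside each list here. Of 23 integrins, Itga1, Itga2, Itga7, Itgam, Itgb2l and Itgb5 were lower and Itga8 and Itga9 higher. Itga1 and Itga2, which pair with the beta 1 chain as collagen receptors, had 0.0743 ± 0.0593 and 0.136 ± 0.109 CPM in SOX9-Halo against 8.20 ± 0.704 and 35.4 ± 1.44 CPM in SOX9-mEGFP spheroids (SD, n = 3), while the laminin receptor chain Itgb4 was not called. Lamb1, the laminin beta 1 chain, was the 1 of 8 laminins called, at 1.66, 1.32 and 0.805 against 39.9, 64.5 and 98.7 CPM (log2 fold change -5.75, SE 0.57, edgeR adjusted p = 3.4e-06), and of 16 collagens Col15a1 and Col9a1 were lower. Of 19 keratins 2 were higher, Krt79 and Krt15, and 3 lower, Krt20, Krt8 and Krt6a. Krt8 (ENSMUSG00000049382, chr15:101905133-101912917), the keratin of simple epithelia, had 1927, 2121 and 1919 against 4636, 4481 and 4312 CPM (log2 fold change -1.17, SE 0.23, edgeR adjusted p = 0.0015), and its partner Krt18 had a 95% interval from -0.82 to 0.12. Of 34 cadherins and protocadherins 5 were higher and 5 lower, of 9 claudins Cldn1 was higher and Cldn15 and Cldn23 lower, of 12 annexins Anxa8 was higher and Anxa4, Anxa10 and Anxa13 lower, and of 10 S100 genes S100b was lower. Of 26 metalloproteinases and inhibitors 4 were higher, Mmp11, Mmp15, Adam8 and Timp2, and 4 lower. Timp2, an inhibitor of these proteases, had 227, 218 and 208 against 31.7, 41.1 and 56.7 CPM (log2 fold change 2.33, SE 0.32, edgeR adjusted p = 6.3e-05).

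Per kilobase of exon, the most abundant DEGs higher in SOX9-Halo were 3 lncRNA models and both ferritin chains, Fth1 and Ftl1. ENSMUSG00000127251 (chr4:133886947-133891945) had 4141, 2835 and 3124 CPM in SOX9-Halo and 1.14, 2.12 and 2.55 CPM in SOX9-mEGFP spheroid libraries, a log2 fold change of 10.76 (SE 0.67, edgeR adjusted p = 4.4e-08). It parted the budding lines too, at 78.4 ± 57.1 and 0.851 ± 0.271 CPM (SD, n = 3), and had 77.7 ± 30.1 CPM in Halo-NLS organoids. Gm43305 (ENSMUSG00000105703, chr14:54529898-54534949) had 3626, 3809.8 and 4330.2 against 15.2, 19.2 and 24.1 CPM in spheroids, 506 ± 333 against 5.28 ± 0.349 CPM in budding organoids and 804 ± 202 CPM in Halo-NLS organoids. The means of both models were thus lower in SOX9-mEGFP organoids of either shape than in the other 3 conditions. ENSMUSG00000141158 (chr11:5955987-5961447) had 8038, 6769 and 7220.3 against 1105, 1553 and 2663 CPM and did not part the budding lines (log2 fold change 0.38). Fth1, with many processed copies in the genome, had 1927, 1366 and 1264 against 716, 734 and 801 CPM, and Ftl1 1532, 917 and 731 against 475, 484 and 489 CPM. Whether other copies share reads with these genes was not tested. The most abundant lower DEGs were Mmp7, Krt8, Tff3, Pglyrp1 and Tmsb10, an actin-sequestering thymosin with 292 ± 147 against 1413 ± 173 CPM (SD, n = 3).

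The levels of Halo-NLS organoids show on which side of the control the difference lay, as a description without a test. Of the 1635 lower DEGs, Halo-NLS was above both spheroid lines for 750 (45.9%), as for Cdx2, Hnf4g and Muc13, and below both for 257 (15.7%), as for Spp1, Pglyrp1 and Dsg3. For the rest it lay between the lines, nearer the higher for 345 (21.1%) and nearer the lower for 283 (17.3%). Of the 604 higher DEGs, Halo-NLS was below both for 253 (41.9%), as for Ltf, Il33 and Pgc, and above both for 61 (10.1%), as for Dll1 and Fth1. With budding organoids of both lines as the reference in its place, 50.7% of the lower DEGs were below and 53.1% of the higher DEGs above the reference in both lines.

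Few of these differences were called between budding organoids of the same lines, whose libraries were part of the same fit and so shared its filter and its estimate of the spread. There, 48 autosomal genes were higher and 29 lower in SOX9-Halo (0.452% called in all). Of the spheroid DEGs, 17 of 604 higher and 12 of 1635 lower genes were called in the same direction and 3 and 3 in the opposite one. By a test of the interaction in the same fit, the log2 fold change was higher in spheroids than in budding organoids for 250 of the higher DEGs and lower for 907 of the lower DEGs, and it was also larger in size for 244 and 906 of these. The DEGs were chosen on the spheroid difference, which favours this direction. Over all autosomal genes tested 1285 (7.54%) had an interaction, and of the 77 genes called between budding organoids 40 did, 29 of them with the larger difference in budding organoids. Mmp7 was called in both, with 5.47 ± 1.59 CPM in SOX9-Halo and 32.5 ± 7.00 CPM in SOX9-mEGFP budding organoids (log2 fold change -2.57, adjusted p = 4.7e-05, edgeR), and its interaction was -8.93 on the log2 scale (adjusted p = 8.4e-09, edgeR). Agr2 and Cdx2 had log2 fold changes of -0.90 and 0.01 in budding organoids, neither of them called.

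Genes of 4 chromosomes were shifted together between the lines. Relative to all autosomal genes, the median log2 fold change was 0.53 on chromosome 8 (972 genes tested), 0.61 on chromosome 19 (656), -0.36 on chromosome 15 (741) and -0.55 on chromosome 18 (465). On the other 15 autosomes it lay between -0.13 and 0.06. Other autosomes departed from Halo-NLS organoids too. Chromosome 13 was at 0.27 ± 0.04 in SOX9-mEGFP and chromosome 17 at -0.24 ± 0.02 in SOX9-Halo libraries (SD, n = 3). Values of that size were thus not particular to the 4 chromosomes, whose levels against Halo-NLS organoids follow. Chromosome 19 was at -0.76 ± 0.04 (SD, n = 3) in SOX9-mEGFP and -0.06 ± 0.02 in SOX9-Halo libraries, and chromosome 18 at 0.75 ± 0.04 in SOX9-mEGFP and 0.23 ± 0.02 in SOX9-Halo libraries. Chromosome 15 was at 0.30 ± 0.02 in SOX9-mEGFP and -0.04 ± 0.01 in SOX9-Halo libraries, and chromosome 8 at 0.31 ± 0.04 in SOX9-Halo and -0.21 ± 0.04 in SOX9-mEGFP libraries. The 3 libraries of one line did not overlap with those of the other on any of the 4, nor on 8 others of the 19 autosomes, where the means of the lines lay at most 0.17 apart. In budding organoids the difference between the lines was -0.50 on chromosome 15, as in spheroids, but -0.33 on chromosome 19, of opposite sign, and 0.03 and 0.02 on chromosomes 8 and 18. Against Halo-NLS organoids, chromosome 19 was at -0.57 ± 0.05 in SOX9-Halo and -0.32 ± 0.08 in SOX9-mEGFP budding libraries. Chromosome 18 was at 0.33 ± 0.13 and 0.25 ± 0.02 there. The shift covered most of each chromosome. In runs of 50 neighbouring genes, 15 of 19 on chromosome 8 and 11 of 13 on chromosome 19 had a median of at least 0.3, out of 28 such runs of 332 in the genome, and 8 of 9 on chromosome 18 and 10 of 14 on chromosome 15 had a median of -0.3 or below, out of 61. The first 3 runs of chromosome 15, up to position 51748010, had medians of 0.12 to 0.23, opposite to the rest of that chromosome, the last run of chromosome 18 had one of 0.04, and the 4 other runs of chromosome 8 had medians from 0 to 0.20.

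**Figure D5:**
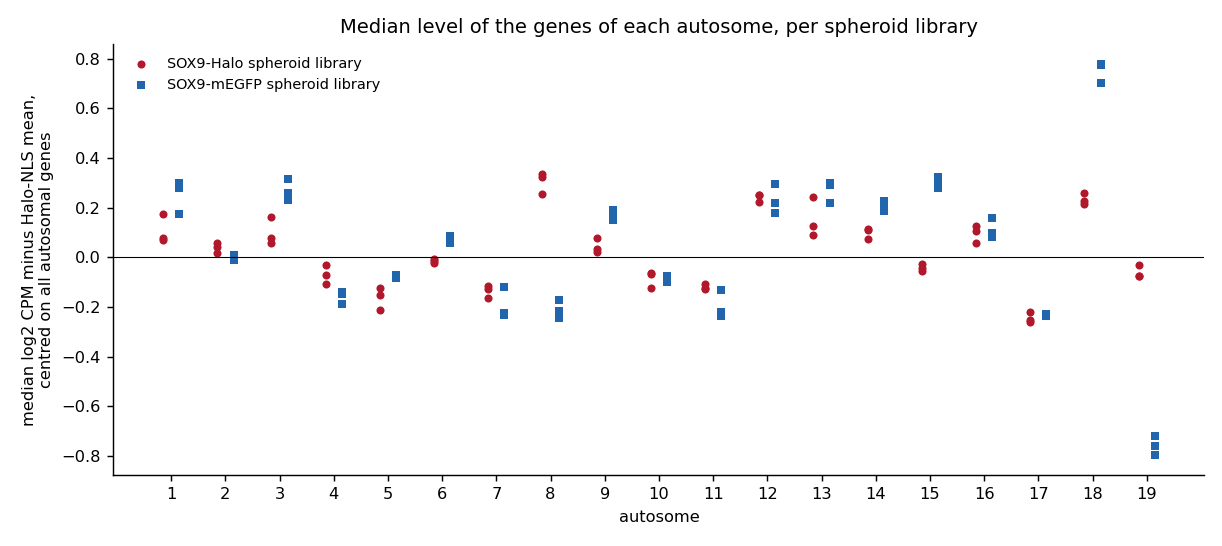
Median, over the tested genes of each autosome (x axis), of log2 CPM minus the Halo-NLS mean, centred on all autosomal genes (y axis), with 1 point per library; red circles are SOX9-Halo and blue squares SOX9-mEGFP spheroids. The lines lie farthest apart on chromosomes 8, 15, 18 and 19, with chromosome 19 at -0.76 ± 0.04 and chromosome 18 at 0.75 ± 0.04 (SD, n = 3) in SOX9-mEGFP.

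The shifts were visible in the calls. Of the genes tested, 17.4% on chromosome 19 and 8.64% on chromosome 8 were higher in SOX9-Halo, against 3.54% of all, and 15.5% on chromosome 18 and 14.8% on chromosome 15 were lower, against 9.59%. On chromosome 19 a run of 7 neighbouring tested genes, 2310034G01Rik, Actr1a, Sufu, Trim8, Arl3, Sfxn2 and Wbp1l between positions 46336640 and 46645836, was higher throughout. Sufu, the hedgehog inhibitor, had 43.1, 71.8 and 77.6 against 13.4, 13.7 and 23.5 CPM and Trim8, a ubiquitin ligase, 169.9, 174 and 175 against 79.8, 70.0 and 109 CPM, log2 fold changes of 1.93 and 1.00. After each autosome's median was subtracted, 507 genes were higher and 1570 lower. Lower runs of related genes lay elsewhere, with 6 neighbouring genes of the Ugt2b, Ugt2a and Sult1 families on chromosome 5, and with 4 neighbouring Cyp3a genes on chromosome 5, 4 Naip genes on chromosome 13 and 4 Cyp2c genes on chromosome 19. The Cyp2c genes fell although most of chromosome 19 was higher, as with Cyp2c55 at 233 CPM in SOX9-mEGFP and 1.21 CPM in SOX9-Halo spheroids (means, n = 3). Myo7b, Cdx1 and Gata6 lie on chromosome 18, Basp1, Krt8 and Ly6a on chromosome 15, and Fam111a, Il33, Gsto1, Anxa1 and Uhrf2 on chromosome 19. With the median of the chromosome subtracted, Myo7b, Cdx1, Gata6, Basp1, Fam111a and Il33 were still called, at log2 fold changes from -10.96 for Basp1 to 13.38 for Fam111a, while Krt8, Gsto1 and Uhrf2 had -0.75, 0.95 and 0.58 and were not. Anxa1 and Ly6a, not called before it either, went from 1.14 to 0.58 and from -1.16 to -0.75. Actr1a, Dsg3, Fth1, Fzd5, Mmp15, Myof, Ndufb8, Sqle, Trim8 and Wbp1l also lost their calls by this subtraction.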

How the data were processed

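Poly-A RNA libraries of 15 organoid samples were analysed, 3 for each of 5 conditions. The authors trimmed reads with cutadapt 4.5, aligned them with STAR to GRCm39 and counted them per gene without strand with HTSeq 2.0.2, and deposited 1 table of raw counts per library (deposited counts, not normalised). Tables of the authors' own DESeq2 comparisons, which hold fold changes and p-values, were not used. Rows that name no gene were left out of library sizes. They held 1.83% to 6.09% of reads without a feature and 9.65% to 13.6% that were ambiguous, and 28062722 to 40559766 reads were counted per library.

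Counts were scaled by TMM, filtered by condition and tested in R 4.3.3 with edgeR 4.0.16 (quasi-likelihood, 1 coefficient per condition, all 15 libraries), with Benjamini-Hochberg adjustment over 17560 genes. The test was checked on simulated data. Genes were named as the 12 largest rises and falls at 5 CPM or more, the 3 most abundant and 2 most changed members of each list, 11 marker genes and the 5 most abundant DEGs per direction. Other genes were named after their values were seen. Some genes that this rule names are not reported here. Members and gene lists were chosen with earlier results of these data known. Genes at 0 in a line were bounded with 3 counts per library, and intervals of ratios (95%) cover counting error only. RefSeq promoters matched 63.8% of tested genes, so motif and CG shares used genome windows at annotated starts for all 17050. Alternatives were other scalings, DESeq2 1.42.0, no filter, other thresholds, fewer libraries and a replicate block. Same-numbered spheroid libraries deviated at r = 0.02, -0.22 and 0.15, so the numbers were not taken as pairs.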

Additional observations from a re-analysis of the deposited data

Results flagged for a closer look

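A total of 250 of the 604 higher and 907 of the 1635 lower DEGs had a log2 fold change between the SOX9 lines that was farther in that direction in spheroids than in budding organoids, by a test of the interaction in the fit over all genes (edgeR's quasi-likelihood test, adjusted p of at most 0.01 and an absolute interaction of at least 1). An interaction past these limits was found for 154 of the 266 tested genes named above, beside 7.54% of all autosomal genes tested. The DEGs and many of the named genes were chosen on the spheroid difference. That difference is part of the interaction, so the choice favours such a result. The value of the interaction is given on the log2 scale, as the log2 fold change in spheroids minus that in budding organoids. Of the intestinal identity transcription factors it was -8.77 for Hnf4g, -7.34 for Creb3l3, -6.79 for Nr1i2, -4.84 for Cdx2, -4.19 for Onecut2, -3.89 for Cdx1, -3.41 for Hnf4a, -3.25 for Ppara and -3.24 for Pdx1. In the group of intestinal identity transcription factors it was -2.12 for Gata6 and 1.86 for Gata5. Among fetal-like and regenerative epithelial markers it was -11.85 for Basp1, -5.33 for Spp1, -3.69 for Anxa10 and 2.91 for Il33. Within Paneth cell products it was -9.21 for Reg3b, -8.93 for Mmp7, -7.61 for Reg3g, -6.06 for Pnliprp2, -4.19 for Lyz1 and -3.14 for Defa24. Of the goblet cell products and regulators it was -12.38 for Zg16, -9.82 for Agr2, -8.98 for Tff3, -8.60 for Spink4, -8.09 for Atoh1, -5.91 for Fcgbp and -3.54 for Guca2a. In the group of enteroendocrine hormones and regulators it was -6.94 for Sct, -6.31 for Insm1, -5.97 for Neurog3 and -3.87 for Cpe. Among brush-border digestive enzymes it was -10.19 for Mep1a, -9.28 for Mep1b and -5.72 for Mgam. Within microvillus structural genes it was -9.81 for Myo7b, -9.11 for Cdhr5 and -2.83 for Vil1. Of the gastric epithelial genes it was -4.39 for Capn9, -4.13 for Capn8 and -2.26 for Atp4a. In the group of airway and ductal secretory genes it was -8.58 for Pigr, -7.46 for Cftr, 3.62 for Ltf and 11.96 for Wfdc2. Among Wnt ligands, receptors and feedback genes it was -6.41 for Sp5, -6.15 for Fzd1, -1.40 for Fzd5, 2.74 for Fzd2, 5.26 for Wnt7b, 5.64 for Notum, 6.03 for Nkd1 and 6.83 for Wnt4. Within Notch ligands, receptors and targets it was -6.90 for Dtx1, -2.19 for Notch4, 2.27 for Dll1 and 3.30 for Notch3. Of the YAP and TEAD genes and YAP targets it was -7.48 for Arhgef17, -6.48 for Nt5e and -2.95 for F3. In the group of TGF-beta, BMP and activin genes it was -8.60 for Bmp8b, -6.57 for Bambi, -6.20 for Bmp3, -5.81 for Id3, -3.10 for Bmp2, -2.66 for Bmp6, -1.85 for Id1, 4.42 for Smad6 and 9.92 for Tgfb3. Among EGF family and MAPK feedback genes it was -3.30 for Fgfr3, -3.28 for Fgfr4, -1.90 for Dusp6, -1.85 for Etv1, 1.54 for Spry1 and 3.35 for Fgfr2. Within HOX genes it was 8.72 for Hoxa5, 9.08 for Hoxa7 and 13.23 for Hoxa10. Of the integrins it was -7.52 for Itga2, -6.78 for Itga1, -3.87 for Itgb2l, -3.33 for Itga7 and 3.26 for Itga9. In the group of metalloproteinases and inhibitors it was 2.10 for Mmp15, 2.58 for Adam8 and 2.81 for Timp2. Among ABC transporters it was -7.14 for Abcc2, -7.01 for Abcb1a and 3.92 for Abcg4. Within conjugating enzymes and carboxylesterases it was -6.44 for Gstm3, -4.39 for Gsta1 and 1.83 for Gsto1. Of the MHC and antigen processing it was -6.91 for H2-Q7, -5.69 for H2-Q1, -3.69 for H2-M3, -2.65 for H2-Q2 and 2.36 for H2-Eb1. In the group of epithelial mucosal defence genes it was -10.18 for Dmbt1, -8.63 for Lypd8, -7.75 for Duox2 and -7.44 for Duoxa2. Among defining epithelial markers it was -7.71 for Krt20, -5.49 for Lgals4 and -1.01 for Epcam. Genes outside these lists followed, with -12.95 for Efemp1, -12.30 for Gnai1, -11.85 for Smpdl3a, -11.55 for Adgrg7, -11.03 for Itpripl2, -10.79 for Fam149a, -10.77 for Gramd1a, -10.43 for Ncs1 and -10.07 for Cstf2t. Further interactions were -9.65 for Naip1, -9.27 for Cdh17, -8.77 for Ccl9, -8.67 for Akr1b10, -8.63 for Anxa13, -8.57 for Apoa1, -8.55 for Casp1, -8.34 for Snrpn and -8.22 for Muc13. It reached -8.12 for Hspb1, -8.05 for Slc10a2, -7.71 for Pycard, -7.47 for Cyp2c55, -7.47 for S100b, -7.00 for B3galt5, -6.36 for Msi1, -4.71 for Lamb1 and -4.70 for Cldn15. Then came -3.89 for Sox12, -3.87 for Nqo1, -3.66 for Hhat, -2.11 for E2f2, -1.27 for Anxa4, -1.22 for Pglyrp1, 1.06 for Bax, 1.39 for Fth1 and 1.47 for Trim8. Last were 1.78 for Ndufb8, 1.80 for Actr1a, 1.91 for Arl3, 2.54 for Fas, 2.69 for 2310034G01Rik, 3.40 for Ptgs1, 4.12 for Zfp503, 4.26 for ENSMUSG00000127251 and 6.61 for Igf2bp1. Genes outside these lists followed, with 8.30 for Alpk3, 8.59 for Aldh3a1, 9.55 for Padi4, 10.22 for Tfap2c and 13.54 for Dmrt2. Interactions of genes at 0 in one line depend on the prior count of the fit and are no bound. Depth, passage and the H2B reporter differ between shapes as well as lines, and their part in these differences was not tested.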

How the results depend on the processing

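The number of higher DEGs was 920 with only the 6 spheroid libraries in the fit and 306 at a log2 fold change of 2 or more in either direction, against 604. It ranged from 391 (without SOX9-mEGFP replicate 2) to 547 when 1 library was left out, and the number of lower DEGs from 1198 to 1499. Other settings gave 507 to 850 higher and 1192 to 2128 lower genes, among them DESeq2 with 733 and 1812. With a replicate block, 686 genes were higher and 1784 lower, and 906 and 1853 with the block and the 6 spheroid libraries only. Not every library correlated best with its own number. Lower genes made up 73.0% of calls, and 67.2% to 79.6% across settings. No DEG changed sign under any of the 17 settings. For some of them this could not have come out otherwise. Settings that changed only a threshold kept the fold changes of the main fit. Subtraction of an autosome's median was too small to turn a DEG. The chromosome 15 median was -0.39 with the 6 spheroid libraries only, -0.41 for genes with a mean normalised count of at least 100 (an alternative chosen after seeing the data) and -0.32 to -0.37 when 1 library was left out, and that of chromosome 18 was -0.64 for the abundant genes. With budding organoids in place of Halo-NLS, the shares of 45.9% and 41.9% became 50.7% and 53.1%. Of 242 called genes in the text, between 30 and 43 missed the threshold when 1 library was left out, and Cldn1, Cldn23, Dhh, Dock5, Fzd5, Fzd8, Kremen1, Krt6a, Lgr5, Plcg2, Sox6 and Uhrf2 did so whichever of the 6 it was. Anxa1, Clu, Hoxa2, Hoxa9, Ly6a and Olfm4, not called, were called with the 6 spheroid libraries only, with or without the block. Log2 fold changes of 5 genes that were not called changed sign around 0. Ezr had 0.0095 with RLE scaling, 0.011 with library sizes alone, 0.0077 with DESeq2, 0.0059 with the 6 spheroid libraries only, 0.0051 with the block in those and 0.095 with each autosome's median subtracted, a subtraction that gave Hes1 0.020 and Krt18 0.069. When 1 library was left out, the ranges were -0.12 to 0.038 for Ezr, -0.099 to 0.011 for Hes1, -0.17 to 0.25 for Cdkn1a and -0.62 to 0.051 for Sox9, which was positive without SOX9-mEGFP replicate 3.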

Other observations

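On the X chromosome, which was left out of the report, 479 genes were tested, of which 17 were higher and 38 lower in SOX9-Halo spheroids (edgeR's quasi-likelihood test), with a median log2 fold change of -0.06.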
